A study of Saccharomyces cerevisiae with 2 samples.

Results

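The hexose transporters and glucose sensors of budding yeast were followed in 2 RNA sequencing libraries. The members were 10 of the 6692 genes in each library, taken by systematic name: HXT1, HXT2, HXT3, HXT4, HXT5, HXT6, HXT7, SNF3, RGT2 and GAL2. All 10 had counts in both libraries. The libraries were replicates 1 and 2 of 1 group, cells grown in 50 mL of synthetic medium to an OD660 of 0.2 and then depleted of methionine. The strain, yJL59a, was labelled MATa and carries his3-11,15 and a leu2 allele beside trp1-1, ura3-1, can1-100 and ade2-1. It also holds reporters under the MET3 promoter, written CDC20::MET3pr-mCherry::URA3 and CWC23::MET3pr-GFP::KanMX. Every allele was shared by both libraries, and no culture kept in methionine was analysed here. A level can therefore be set against other genes of the same libraries, and no gene can be called induced or repressed. The sources used here do not give the carbon source of the medium.

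Replicate 1 held 34052011 counts and replicate 2 held 35367508 counts, of which the 10 members took 0.710% and 0.802%. Levels are given as FPKM, the count per kb of coding sequence and per 1000000 counts of the library, with the mean ± SD of the libraries (n = 2). The median of the 6007 genes with a coding length was 45.9 FPKM. The mating-type markers went against the label in both libraries: 0 of 5 a-specific genes exceeded the all-gene median (their own median was 8.96 FPKM), and 4 of 4 alpha-specific genes exceeded it (median 602 FPKM). MATa is thus given here as the label alone. The part of mating type in the carrier levels was not tested, since both libraries share it.

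Yeast takes up glucose by facilitated diffusion through carriers of the plasma membrane. Hxt1 and Hxt3 are known as low-affinity carriers that serve when glucose is plentiful. Hxt2, Hxt4, Hxt6 and Hxt7 bind glucose more tightly and are known from cells on little glucose. Snf3 and Rgt2 resemble carriers but sense glucose instead of transporting it. Through casein kinases at the membrane they trigger loss of the corepressors Mth1 and Std1, which frees HXT promoters from the repressor Rgt1. A separate arm, the kinase Snf1 and the repressor Mig1, keeps several high-affinity carriers low when glucose is plentiful.

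Transcripts of both affinity classes were abundant at the same time. By coding length HXT2, a high-affinity carrier, was the highest member, HXT3, a low-affinity carrier, came next, and HXT4, again high-affinity, was the third. These 3 genes made up 96.0% ± 0.268 of the FPKM sum of the 8 carriers. Most of the sequence of HXT7, a further high-affinity carrier, cannot be told from that of HXT6. Divided by the windows of read length that occur once in the genome, HXT7 stood above HXT4 in both libraries. The share of the 3 genes was then 80.7% ± 5.24. With windows that reach past the ends of the coding sequence counted too, HXT7 stood below HXT4 in both libraries. The share was then 85.5% ± 3.73, and that divisor was chosen after the data had been seen. Of the 10 members, 5 lay above the all-gene median, where 50.0% of all genes lie by construction. HXT7, at 47.6 FPKM, was the lowest of these 5. The count was 4 in replicate 1 alone, 4 where only genes of at least 1 FPKM set the median, and 6 without division by length. The median over the members was 40.0 FPKM. In bulk RNA, fewer cells with a transcript and less of it per cell cannot be told apart.

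**Figure D1:**
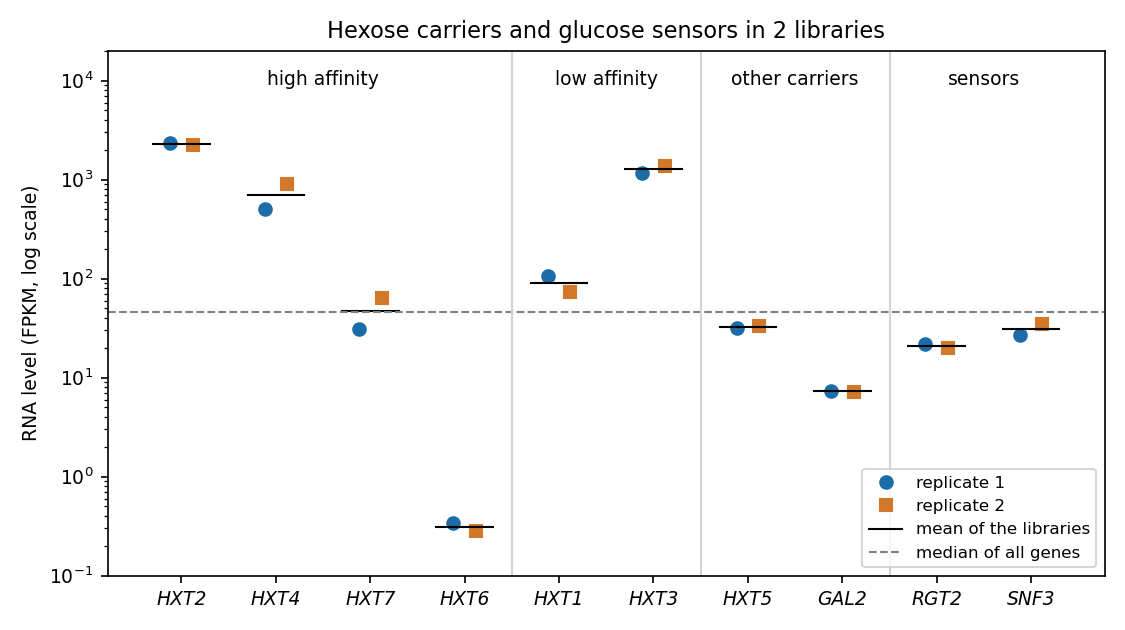
RNA level in FPKM on a log axis for the high-affinity carriers, the low-affinity carriers, the other carriers and the sensors, with a circle for replicate 1, a square for replicate 2, a bar for their mean and a dashed line at the median of all genes, 45.9 FPKM. By coding length HXT2, HXT3 and HXT4 are the 3 highest in both libraries, with HXT4 in replicate 1 lowest of them at 499 FPKM, HXT6 lies at 0.343 and 0.281 FPKM, and the squares of HXT4 and HXT7 stand clear of their circles.

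Among the high-affinity carriers, HXT2 (YMR011W, chromosome XIII, 288079 to 289704) had 130448 and 129437 counts in replicates 1 and 2, or 2356 and 2251 FPKM. Both values are high and close to each other. HXT2 was rank 91 of 6007 genes and stood 50.2 times above the all-gene median. HXT4 (YHR092C, chromosome VIII, 287081 to 288811) had 499 FPKM in replicate 1 and 906 FPKM in replicate 2, on 29433 and 55488 counts. It was rank 280 by its mean of 703 ± 288 FPKM, and its libraries lay much further apart than those of HXT2. The remaining high-affinity genes, HXT7 and HXT6, stood at 47.6 ± 23.8 FPKM and 0.312 ± 0.0440 FPKM by coding length, and few reads can be placed on either gene alone, as described below.

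The low-affinity carriers were far apart in level. HXT3 (YDR345C, chromosome IV, 1162957 to 1164660) had 67431 and 82850 counts, or 1162 FPKM in replicate 1 and 1375 FPKM in replicate 2, which made it rank 177. HXT1 (YHR094C, chromosome VIII, 290913 to 292625) had 6144 and 4475 counts, or 105 and 73.9 FPKM, rank 1828. HXT3 was above HXT1 by 11.0 times in replicate 1 and by 18.6 times in replicate 2. Their proteins, translated from the reference, are 86.6% identical, the closest pair among the member carriers after HXT7 with HXT6. Similar proteins thus came from genes of very different RNA level.

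The comparison of affinity classes was made on FPKM sums. The sums of the high-affinity genes were 2886 and 3222 FPKM in replicates 1 and 2, against 1267 and 1449 FPKM for the low-affinity genes. The ratio of the sums was 2.28 in replicate 1 and 2.22 in replicate 2, or 2.25 ± 0.0377. By coding length its direction rested on HXT2: with HXT2 left out, which was tried after the data had been seen, the high-affinity sum was 0.544 times the low-affinity sum. By medians over genes instead of sums the ratio was also 0.544. Neither direction was settled once levels were divided by unique windows: without HXT2 the ratio was then 0.774 in replicate 1 and 1.32 in replicate 2, and by medians 0.769 and 1.32, on opposite sides of 1 in the 2 libraries. Within either class the genes thus differed more than the class sums did. With HXT4 left out the ratio was 1.74, and with HXT6 and HXT7 left out it was 2.22.

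HXT5 and GAL2 were low. HXT5 (YHR096C, chromosome VIII, 294669 to 296447), a carrier of moderate affinity known from slowly growing cells, had 1909 and 2099 counts, or 31.5 and 33.4 FPKM. Its libraries differed little, and it stood 1.41 times below the all-gene median. GAL2 (YLR081W, chromosome XII, 290212 to 291936), the galactose permease, which also carries glucose, had 435 and 441 counts, or 7.41 and 7.23 FPKM. It was rank 5391 and stood 6.27 times below the all-gene median, with the smallest SD relative to its mean of all members.

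The sensors were both below the all-gene median. RGT2 (YDL138W, chromosome IV, 213351 to 215642), known as the sensor of high glucose, had 1693 and 1617 counts, or 21.7 and 19.9 FPKM. SNF3 (YDL194W, chromosome IV, 111580 to 114234), known as the sensor of low glucose, had 2456 and 3264 counts, or 27.2 and 34.8 FPKM. RGT2 was lower than SNF3 in both libraries, at 0.799 times its FPKM in replicate 1 and 0.574 times in replicate 2. The 8 carriers summed to 4193 and 4711 FPKM, against 48.9 and 54.7 FPKM for the sensors, a ratio of 86.0 ± 0.210. Without division by length, as CPM (counts per 1000000 counts of the library), SNF3 had 72.1 and 92.3 CPM and lay above 61.1% of genes, against 37.1% by FPKM. Its coding sequence is the longest of the members at 2655 bp.

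In the order of mean FPKM, the members ran HXT2, HXT3, HXT4, HXT1, HXT7, HXT5, SNF3, RGT2, GAL2 and HXT6. Neighbours were called separate where the higher gene was higher in both libraries and the difference of mean log2(FPKM+1) was above the sum of their SDs. Of the 9 neighbouring pairs, 6 were separate. HXT1 with HXT7, HXT7 with HXT5, and HXT5 with SNF3 did not differ beyond their spread by coding length. By unique windows HXT7 moved up to lie between HXT3 and HXT4 and did not differ from either beyond the spread, and HXT1 and HXT5 became neighbours that were separate. By coding length, HXT5 and SNF3 differed by 0.07 on that log2 scale, with summed SDs of 0.30. With 1 group of 2 libraries this order is a description, and no test between genes was made.

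HXT7 and HXT6 need to be read with their sequence. HXT7 (YDR342C, chromosome IV, 1154216 to 1155928) and HXT6 (YDR343C, chromosome IV, 1159608 to 1161320) lie 3679 bp apart on the same strand, and their coding sequences of 1713 bp each differ at 3 bases. Written with the HXT6 base first, counted from 1 at the A of the start codon, these are T1632C, G1666A and T1677C, and G1666A alone changes an amino acid. The sequences are identical over the first 1631 coding bases and over 84 bases before the start codon. The stretch that holds all 3 differences is shown because a read can be placed on either gene by nothing else in the coding sequence. It spans coding bases 1602 to 1697, chrIV:1154232-1154327 for HXT7 and chrIV:1159624-1159719 for HXT6, minus strand, R64 assembly of RefSeq, with the differing bases in capitals.
HXT7: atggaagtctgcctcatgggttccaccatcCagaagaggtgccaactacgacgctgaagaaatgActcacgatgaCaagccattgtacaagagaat
HXT6: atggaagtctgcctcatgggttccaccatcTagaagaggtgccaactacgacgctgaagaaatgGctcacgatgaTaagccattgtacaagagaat

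Of the 1664 windows of 50 bases, the read length, in each gene, 82 occur once in the reference genome, or 4.93%. HXT7 had 1793 counts in replicate 1 and 3903 counts in replicate 2. HXT6 had 20 counts (95% exact Poisson interval 12.2 to 30.9) and 17 counts (9.90 to 27.2), and these intervals cover counting error only. HXT7 was above HXT6 by 89.7 times in replicate 1 and by 229.6 times in replicate 2. HXT6 had as many unique windows as HXT7 and nearly no counts. The windows that both copies share can have given HXT6 no more than those 20 and 17 counts. The sources used here do not say how reads with several placements were treated, and the sequence of the study strain at these genes was not analysed here. Divided by unique windows instead of coding length, HXT7 came to 642 and 1346 per kb of windows and 1000000 counts, and rank 251 of 5933 genes, against 7.16 and 5.86 for HXT6. HXT7 then averaged 994 ± 498, against 47.6 ± 23.8 by coding length, and HXT4 averaged 742 on the same divisor. The other members outside this pair moved by less than 1.5 times. Counting also windows that reach past the ends of the coding sequence, also tried after the data had been seen, gave 402 and 842 for HXT7. On that divisor HXT4 came to 497 and 903, above HXT7 in both libraries. By coding length and in replicate 1 alone, at 30.7 FPKM, HXT7 lay below the all-gene median. In replicate 2 it stood at 64.4 FPKM.

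**Figure D2:**
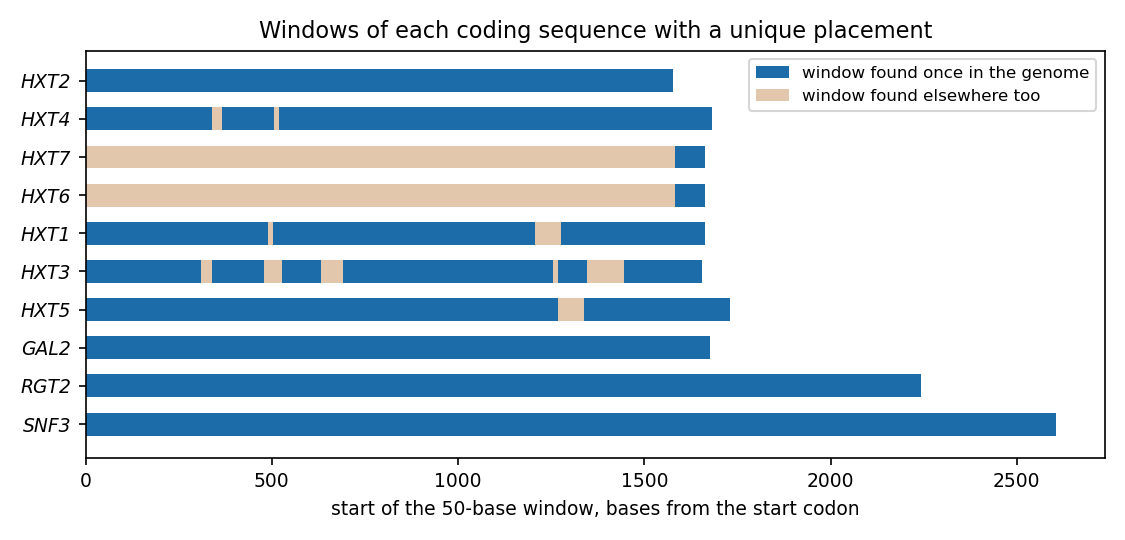
Windows of 50 bases along each coding sequence, by the distance of their first base from the start codon, with windows found once in the reference genome in blue and windows found elsewhere too in beige. HXT7 and HXT6 place a read by 82 windows at their 3′ ends, and the sensors, HXT2 and GAL2 do so over their whole length.

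The other members share little sequence. All windows of HXT2, GAL2, RGT2 and SNF3 were unique. HXT3 had 85.1% unique windows, with 217 windows shared with HXT7 and HXT6 and 29 with HXT4, where reads cannot be assigned to 1 gene. HXT1 had 1581 unique windows of 1664 and HXT5 1660 of 1730, and 70 windows were common to that pair. HXT4 had 97.5% unique windows. The longest run common to HXT3, HXT7 and HXT6 is shown because no read inside it can be assigned to 1 of these genes. It is 149 bases long and covers coding bases 1346 to 1494 of HXT3, chrIV:1163167-1163315, minus strand, R64.
HXT3: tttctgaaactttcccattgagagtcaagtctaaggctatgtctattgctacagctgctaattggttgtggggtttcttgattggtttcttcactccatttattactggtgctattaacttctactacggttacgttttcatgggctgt
No member overlaps another annotated gene or another reading frame of at least 100 codons. The 27 other pairs of carriers, HXT7 with HXT6 left out, had protein identities between 65.6% and 86.6%. RGT2 and SNF3 are 62.6% identical to each other, and between 31.4% and 34.3% identical to a carrier over 16 pairs. After the end of their alignment to Hxt1, 134 residues followed in Rgt2 and 287 in Snf3, the long cytoplasmic tails for which the sensors are known, against at most 1 in the carriers aligned.

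Among the members, codon use separated carriers from sensors. The codon adaptation index scores each codon against the synonymous codon most used by 132 genes of cytosolic ribosomal proteins, with 1 as the highest value. The carriers from HXT1 to HXT7 lay between 0.267 for HXT5 and 0.630 for HXT4, and GAL2 had 0.312. RGT2 had 0.159 and SNF3 0.177, against a median of 0.195 over all genes. Outside the members the separation did not hold. The measured genes from HXT8 to HXT17 lay between 0.161 for HXT14, below SNF3, and 0.261 for HXT8. GAL2, low in RNA, had an index above that of 88.3% of genes. HXT6, nearly without counts, had 0.588, as did HXT7.

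The libraries differed in some carriers by more than most genes did. Among 5249 genes of at least 10 FPKM, 2.80% differed by over 1.5-fold between the replicates, 1.03% higher in replicate 2 and 1.77% lower. Of the 8 members at that level, 2 did so, HXT4 and HXT7, both higher in replicate 2. HXT4 was 1.82 times and HXT7 2.10 times higher in replicate 2, larger differences than those of 99.5% and 99.9% of these genes. HXT1 went the other way, at 0.701 times its FPKM of replicate 1, a larger difference than that of 95.8% of genes. HXT3 was 1.18 times and SNF3 1.28 times higher in replicate 2, HXT2 was at 0.955 times, HXT5 at 1.06 times and RGT2 at 0.920 times. By coding length the ratio of HXT4 to HXT1 was 4.74 in replicate 1 and 12.3 in replicate 2, while the ratio of the affinity sums stayed near 2.25. By unique windows HXT7 went from 642 in replicate 1 to 1346 in replicate 2, and the ratio of the sums averaged 2.51. Whether the ratio was as steady between the libraries on that divisor is not given here. The calls of HXT4 and HXT7 were kept with TMM scaling and with DESeq2 size factors. With 1 library on either side no test was possible.

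**Figure D3:**
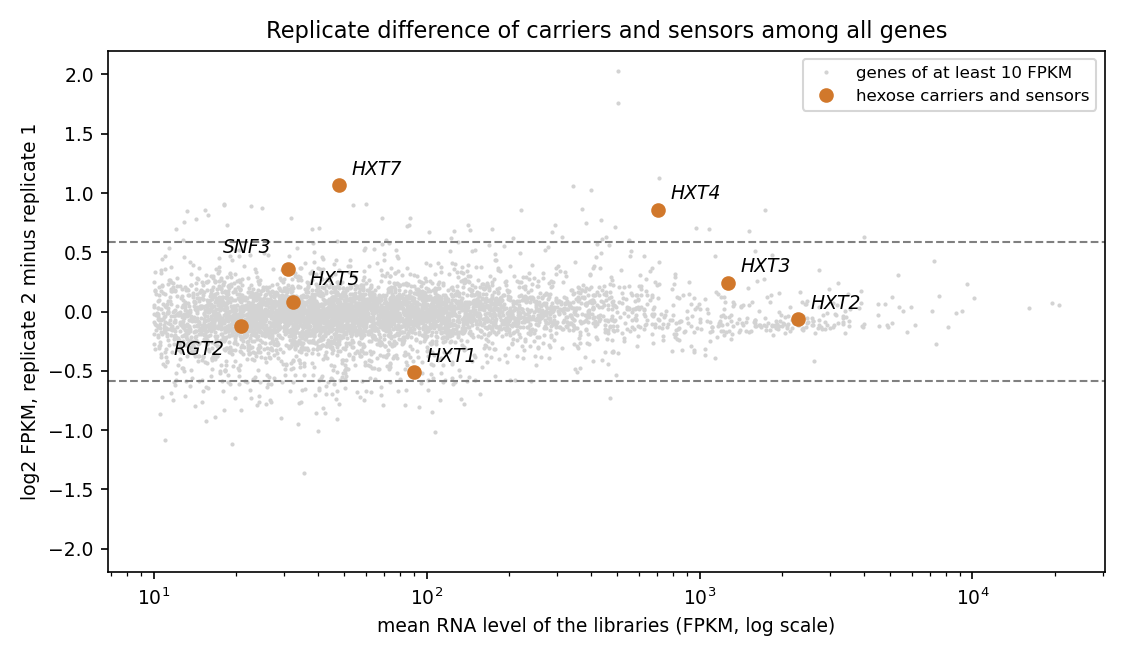
Difference of log2 FPKM between replicate 2 and replicate 1 against the mean level on a log axis, for 5249 genes of at least 10 FPKM in grey and the 8 members at that level in orange, with dashed lines at 1.5-fold. HXT7 and HXT4 lie above the upper line, and HXT1 lies just inside the lower line.

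The promoters were searched for the letters known to be bound by the regulators of these genes, over 1000 bases before each start codon and on both strands. For Rgt1 the letters were CGGANNA, found in 66.5% of 6001 such regions. HXT3 had 9 matches and HXT1 had 8. No other region had 9, and HXT3 and HXT1 were the 2 regions with at least 8. HXT5 had 4, HXT2, HXT4, HXT6 and GAL2 had 3, HXT7 had 2, and RGT2 and SNF3 had 0. The regions of HXT4, HXT5, HXT6, SNF3 and GAL2 reach into a neighbouring gene. The low-affinity pair, at ranks 177 and 1828, thus had the most of these matches, at RNA levels far apart. Stretches of 120 bases with the most matches are shown for HXT1, HXT3 and HXT2, 5′ to 3′ towards the start codon, with matches in capitals on either strand. They lie at chrVIII:293012-293131, chrIV:1165083-1165202 and chrXIII:287605-287724 (R64), on the minus strand for HXT1 and HXT3 and the plus strand for HXT2, and begin 506, 542 and 474 bases before the start codon.
HXT1: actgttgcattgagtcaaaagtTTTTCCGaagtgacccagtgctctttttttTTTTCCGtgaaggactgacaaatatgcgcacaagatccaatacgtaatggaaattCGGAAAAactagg
HXT3: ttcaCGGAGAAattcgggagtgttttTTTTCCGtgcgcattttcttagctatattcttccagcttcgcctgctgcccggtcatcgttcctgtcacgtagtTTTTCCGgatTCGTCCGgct
HXT2: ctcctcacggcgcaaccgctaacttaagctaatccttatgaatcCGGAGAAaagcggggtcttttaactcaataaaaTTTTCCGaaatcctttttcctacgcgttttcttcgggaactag
For Mig1 the letters were CCGGGG or CTGGGG or GCGGGG or GTGGGG, found in 41.9% of regions. HXT2 and HXT4 had 4 matches each, a number that 51 of 6001 regions reached, their own included. HXT6 had 3, HXT1, HXT3, HXT7 and SNF3 had 2, HXT5 had 1, and RGT2 and GAL2 had 0. No Rgt1 match overlapped a Mig1 match in the members.

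For Gal4, the activator of the galactose genes, the letters were CGG and CCG with 11 bases of any kind between them, found in 5.77% of regions. GAL2 had 5 matches, of which 2 overlap each other, more than any other region. HXT3 had 2 and HXT6 had 1. Of the Rgt1 matches, 2 of 9 in HXT3 and 2 of 3 in GAL2 overlap a Gal4 match, since both sets of letters hold CGG. The stretch of GAL2 with 4 of its matches, chrXII:289783-289902 on the plus strand of R64, begins 429 bases before the start codon and is shown because GAL2 stood at 7.32 ± 0.125 FPKM beside it.
GAL2: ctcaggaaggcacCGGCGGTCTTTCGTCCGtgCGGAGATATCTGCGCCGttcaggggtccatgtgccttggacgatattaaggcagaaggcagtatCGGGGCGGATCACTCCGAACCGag
A match is a description of letters and not a bound site.

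Most members lie in clusters. HXT4, HXT1 and HXT5 follow each other on chromosome VIII on the minus strand, with AHT1 between HXT4 and HXT1. HXT7, HXT6 and HXT3 follow each other on chromosome IV on that strand, with YDR344C between HXT6 and HXT3. Neighbours were often far apart in level. AHT1, 330 bp from HXT4, stood at 5.78 ± 1.22 FPKM, and YDR344C, 507 bp from HXT3, at 9.48 ± 2.78 FPKM. HXT5, 2043 bp from HXT1, was at 32.4 FPKM, and its other neighbour PAL2 at 479 ± 8.83 FPKM. Of the 14 neighbours that are no member, 8 lay above the all-gene median. The lowest was AHT1 and the highest ARF2, beside RGT2, at 954 ± 53.0 FPKM, and the other neighbour of RGT2, SCM3, stood at 28.5 ± 1.02 FPKM. HXT2 lies between ANY1 at 78.0 ± 5.32 FPKM and CLU1 at 69.0 ± 5.10 FPKM, both far below it. SNF3 lies between SEC31 at 87.8 ± 2.34 FPKM and NUS1 at 84.7 ± 0.878 FPKM, both above it.

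The remaining HXT genes were low by coding length. All 9 measured, HXT8 to HXT17 without HXT12, lay below the all-gene median, and their median was 2.61 ± 0.177 FPKM. By that measure HXT8 was highest at 9.54 ± 0.185 FPKM, followed by HXT17 at 9.17 ± 0.319 FPKM. All windows of HXT8 are unique, against 32.9% of those of HXT11 and 5.80% of those of HXT15. The order of these genes was not recomputed by unique windows. HXT16 was lowest, with 4 counts in replicate 1 and 0 in replicate 2, but 4 of the 9 genes, HXT16 among them, have under 50% unique windows. By coding length the sum over these 9 genes was 39.1 FPKM in replicate 1 and 42.3 FPKM in replicate 2. This sum cannot be set against that of the sensors, since all windows of the sensors are unique. HXT15, with 153 and 156 counts, has 96 unique windows of 1655. The sum was not recomputed by unique windows.

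The sensor arm to Rgt1 was transcribed at middle levels. Of its 8 genes, 5 were higher than the median of all genes, and the arm's own median was 69.1 ± 1.59 FPKM. MTH1, a corepressor of HXT genes, was highest at 203 ± 9.46 FPKM, and the casein kinase gene YCK2 followed at 126 ± 1.78 FPKM. GRR1, the F-box protein of the ligase that marks Mth1 and Std1 for degradation, was lowest at 22.4 ± 1.49 FPKM. RGT1, the repressor itself, stood at 25.3 ± 0.772 FPKM, and STD1, the relative of MTH1, at 38.4 ± 0.742 FPKM, both named after their values were seen. MTH1 was above STD1 by 5.18 times in replicate 1 and 5.38 times in replicate 2. None of the 8 differed by over 1.5-fold between the libraries.

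The Snf1-Mig1 arm was similar. Of 13 genes, 8 lay above the all-gene median, with a list median of 67.8 ± 1.49 FPKM. GLC7, the catalytic subunit of the phosphatase that opposes Snf1, was highest at 409 ± 6.41 FPKM, and the repressor MIG1 followed at 153 ± 1.24 FPKM. ELM1, a kinase upstream of Snf1, was lowest at 12.7 ± 0.172 FPKM. None of the 13 differed by over 1.5-fold between the libraries. MIG2, a repressor related to Mig1 and known to be induced by glucose, was named after its values were seen and stood at 117 FPKM in replicate 1 and 92.0 FPKM in replicate 2, which is 0.788 times.

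The enzymes that phosphorylate glucose after uptake were the highest list. All 4 lay above the all-gene median, and their median was 1587 ± 288 FPKM, close to the level of HXT3. GLK1, glucokinase, stood at 1843 ± 426 FPKM, HXK2, the main hexokinase on glucose, at 1654 ± 5.40 FPKM, and EMI2, a relative of glucokinase, was lowest at 667 ± 119 FPKM. All 4 were higher in replicate 2, and 1 of them by over 1.5-fold. That gene was HXK1, a hexokinase known to be repressed by glucose and named after its values were seen, at 1.60 times its FPKM of replicate 1. The ratio of HXK1 to HXK2 was 0.709 in replicate 1 and 1.13 in replicate 2.

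**Figure D4:**
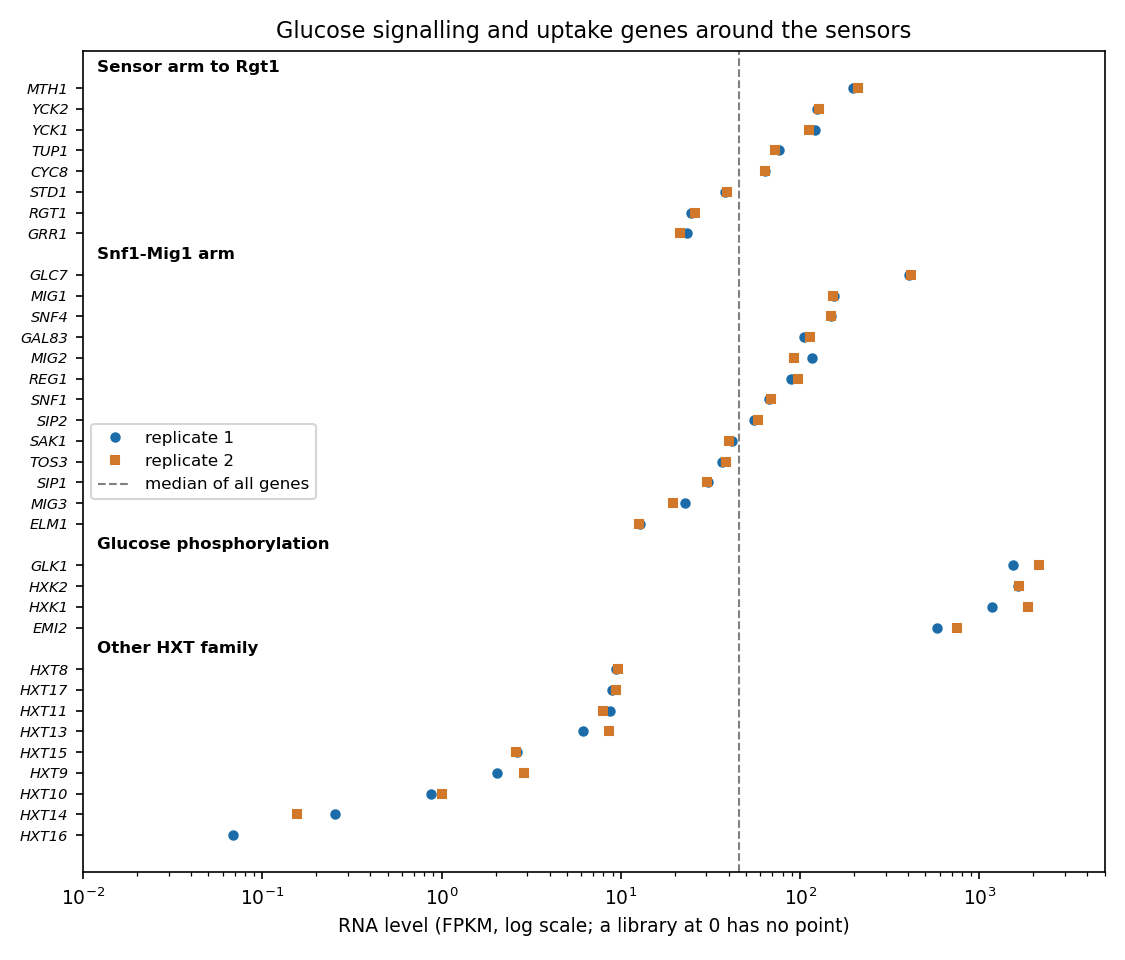
RNA level in FPKM on a log axis for the genes of the sensor arm to Rgt1, the Snf1-Mig1 arm, glucose phosphorylation and the remaining HXT family, with a circle for replicate 1, a square for replicate 2 and a dashed line at the median of all genes. Glucose phosphorylation lies at 583 FPKM, the value of EMI2 in replicate 1, or above, all 9 remaining HXT genes lie below the dashed line, and circles and squares nearly coincide in both signalling arms.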

How the data were processed

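RNA was sequenced from 2 libraries, replicates of 1 group. Per the methods, mRNA was captured on beads and read in pairs of 50 bases, sacCer3 was the reference, and featureCounts 2.0.3 made the counts. The deposited values are counts, whole numbers that sum to 34052011 and 35367508, although the authors name them FPKM. The sources used here do not state the strand setting, the annotation version, how reads with several placements were treated, or if pairs or single reads were counted. The study lists uniquely mapped reads for each library, and the count total is above that number for replicate 1 and below it for replicate 2, which does not settle either question. The study calls its samples biologically independent.

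FPKM was computed here from the counts, the merged coding length of the R64 annotation (the assembly named sacCer3) and the library total. Of 6692 rows, 685 did not match a coding gene and held 0.281% and 0.292% of counts. They were kept in library totals. A count of 3 corresponds to between 0.0319 and 0.0542 FPKM over the members. Windows of 50 bases were matched to the whole genome on both strands. Promoters and coding sequences are those of RefSeq R64. Proteins were translated from them and aligned globally with BLOSUM62. The replicate comparison, which used a fold of 1.5 and a minimum of 10 FPKM, and the window search were tested on simulated data and by string search. Computations ran in Python 3.11.15 with Biopython 1.88. Scaling factors alone came from R 4.3.3, by TMM (edgeR 4.0.16) and by size factors (DESeq2 1.42.0).

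The members and lists were chosen with earlier results of these data known. The text names all 10 members, some of the adjacent genes, and the 2 highest and 1 lowest genes of each list of pathway genes. It names some other listed genes too, HXT11, HXT14 and HXT15 among them. For RGT1, STD1, MIG2 and HXK1 it says that they were named after their values were seen. Alternatives were another divisor, another choice of carriers, another scaling, fold, minimum or pseudocount, and each library alone. No test was made, since there is 1 group.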

Additional observations from a re-analysis of the deposited data

How the results depend on the processing

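The ratio of the high-affinity to the low-affinity sum, 2.25 in the main setting, was 2.18 by CPM without division by length, 2.51 by unique windows and 1.74 without HXT4. It was 2.33 by unique windows overlapping the coding sequence and 2.75 by 200-base fragments with a unique end, both chosen after seeing the data. By coding length each library alone gave 2.22 and 2.28. By coding length the ratio turned round to 0.544 by medians over genes, and to 0.544 without HXT2, which was also chosen after seeing the data. With the divisor changed as well, also chosen after seeing the data, the ratio without HXT2 was 1.05 by unique windows, 1.10 by fragments and 0.854 by overlapping windows, and by medians 1.05, 1.10 and 0.852. In each of these replicate 1 was below 1 and replicate 2 above it. The share of HXT2, HXT3 and HXT4 in the carrier sum, 96.0% by coding length, was 80.7% by unique windows, 85.5% by overlapping windows and 81.5% by fragments. At a fold of 2 instead of 1.5, 1 member, HXT7, differed between the replicates, among 11 of 5249 genes in place of 147. SNF3 was above the all-gene median by CPM, over 61.1% of genes, and below it by FPKM, over 37.1%. HXT7 was over 36.6% of genes in replicate 1 alone and over 61.0% in replicate 2 alone. Of 43 recomputed counts, shares and ratios, 26 kept within limits, for a count a change of at most 1.5 times and for a ratio or share less than the SD of the replicates, 13 went beyond and 4 turned round. Of 60 recomputed levels of members, as the percent of genes below, 27 moved by less than the SD of the replicates, 31 by more, and 2 crossed the all-gene median. The number of separate pairs in the order was 6 with a pseudocount of 0.1, 5 by unique windows, 7 by overlapping windows and 6 by fragments. No paired analysis was possible because there is 1 group. With 2 libraries the SDs are themselves uncertain, and the level of HXT6 rests on 20 and 17 counts.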

Other observations

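Other carriers and the receptor arm of glucose sensing were also measured. The 5 other carriers listed were MAL11, MAL31, MPH2, MPH3 and STL1. Of these, 1 lay above the all-gene median, the maltose permease gene MAL31 at 64.8 ± 2.58 FPKM. MAL11, a permease of maltose and related sugars, followed at 30.1 ± 4.09 FPKM, close to SNF3. MPH2 was lowest with 1 count in either library, and under 50% of its windows and of those of MPH3 are unique. The Gpr1 arm, a membrane receptor for glucose that acts through the G protein Gpa2 on the cAMP pathway, had a median of 31.7 ± 1.97 FPKM. GPA2 stood at 283 ± 4.67 FPKM, GPR1 at 31.7 ± 1.97 FPKM, close to SNF3 again, and RGS2, which turns Gpa2 off, was lowest at 23.7 ± 1.12 FPKM. None of these genes of at least 10 FPKM differed by over 1.5-fold between the libraries.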
